A study of Mus musculus with 12 samples.

Results

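The 36 genes described here are mouse orthologs of well-known autism risk genes, chosen by name from what is known of the human disorder. No measured value enters the rule, but the list was drawn up when earlier results of these data were known. All 36 were found in the deposited count table of 27179 Entrez gene IDs, and all 36 passed the filter on low counts that left 17937 genes for testing. They fall into 6 groups by role: 4 synaptic scaffolds, 10 adhesion or membrane proteins, 5 chromatin remodellers, 4 genes of histone methylation, 7 transcriptional regulators, and 6 genes of growth signalling, translation and protein turnover. RNA of the hippocampus was measured in 12 mice aged 3 months. The 6 Nell-1+/6R mice, 3 females and 3 males, carry 1 copy of the 6R allele, a loss-of-function mutation of Nell1 induced with the chemical mutagen ENU and carried in the germline. The 6 WT mice, 3 females and 3 males, are littermates with genotype WT in the labels, although their sample titles also contain the abbreviation for heterozygous. No animal was treated, and each library is 1 mouse.

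The study asked whether loss of a Nell1 copy affects the brain, with tests of behaviour related to autism beside the hippocampal RNA, and the comparison here asks whether genes tied to autism in people differ in hippocampal level between the genotypes. Neurexins on the presynaptic side bind neuroligins on the postsynaptic side across the cleft, and SHANK proteins hold the receptors and signalling proteins of the postsynaptic density in place beneath them. The chromatin group acts in the nucleus: CHD and BAF proteins move nucleosomes, and the KMT2, ASH1L and SETD5 proteins belong to the machinery of histone methylation at active genes. FMRP, the product of Fmr1, holds back translation of synaptic mRNAs, TSC1 and TSC2 restrain mTOR, and CUL3 is the core of a ubiquitin ligase. Many of these genes are dosage sensitive in people, so that loss of a single copy can cause disease.

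The libraries held between 10834905 and 16016317 counts. Nell1, the mutated gene, was at 36.5 ± 4.55 CPM (the count scaled to the size of the library with TMM factors; SD, n = 6) in WT mice. In the 6 carriers it was at 19.1 ± 1.77 CPM (SD, n = 6), with no carrier as high as the lowest WT mouse, so the libraries follow their genotype labels (log2 difference -0.93, SE 0.080, adjusted p = 1.50e-04, edgeR). The hippocampal principal neuron markers were present in all 12 libraries, with a summed level of 1113 to 1287 CPM in WT and 1050 to 1290 CPM in Nell-1+/6R mice. Of these 12 genes 7 were below 0 between genotypes (median log2 difference -0.08), with 2 higher and 1 lower at an unadjusted p under 0.05. In bulk tissue, fewer cells of a type and less RNA per cell cannot be told apart. The dissections differed in neighbouring tissue: the choroid plexus markers summed to 50.6 to 4618 CPM in WT mice and to 39.8 to 5130 CPM in Nell-1+/6R mice, with all 7 genes estimated below 0 between genotypes (median log2 difference -1.03) and none at an unadjusted p under 0.05. The leptomeningeal fibroblast markers summed to 108 to 355 CPM in WT and 65.5 to 366 CPM in Nell-1+/6R mice, with 8 of 8 genes below 0, 5 of them at an unadjusted p under 0.05 (median -0.91). The GABAergic neuron markers summed to 559 to 634 CPM in WT and 584 to 689 CPM in Nell-1+/6R mice, with 8 of 8 above 0 and 2 at an unadjusted p under 0.05 (median 0.09). The 7 oligodendrocyte markers and the 7 thalamus and habenula markers tested were all below 0 (medians -0.11 and -0.20), with 0 and 1 at an unadjusted p under 0.05. No marker in these lists passed at an adjusted p under 0.05 with edgeR, and the part of these tissues in the values of the 36 genes was not tested.

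The genes differed widely in level. Levels between genes were compared as RPKM, the CPM per 1000 bases of merged exons, so that long transcripts do not appear higher because of their length. Shank1, the scaffold that links receptor complexes of the postsynaptic density, was highest at 138 ± 12.2 RPKM (SD, n = 6 WT mice). It was followed by Ctnnb1, which encodes the adhesion and Wnt signalling protein beta-catenin, at 81.1 ± 3.51 RPKM, and by Nlgn2, the neuroligin of inhibitory synapses, at 74.8 ± 4.38 RPKM. Shank3 stood at 66.5 ± 4.84 RPKM and Nrxn2 at 33.0 ± 1.41 RPKM. The median of the 36 was 9.68 RPKM.
At the low end, Nlgn1, the neuroligin of excitatory synapses, was at 3.61 ± 0.679 RPKM and Fmr1 at 3.36 ± 1.21 RPKM. Ptchd1, which encodes a membrane protein of the patched family, stood at 2.08 ± 0.420 RPKM and the contactin Cntn4 at 1.37 ± 0.318 RPKM. Foxp2, the forkhead factor known from speech disorder, was lowest at 0.0839 ± 0.0366 RPKM, with 214 counts over all 12 mice, which limits every statement about it. Among the 35 pairs of neighbours in this order, the ranges of the 6 WT mice overlapped in 28. The steps without overlap were those below Shank1, Shank3, Nrxn2, Nrxn3, Pogz, Foxp1 and Cntn4. With the longest transcript as the length in place of merged exons, the order of the 36 was similar (Spearman 0.88 across genes, which are not independent replicates), but single levels moved: Nrxn2 was then at 68.4 RPKM, Tcf4 at 61.9 in place of 19.4 RPKM, Foxp2 at 0.203 RPKM and Shank1 at 148 RPKM.

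**Figure D1:**
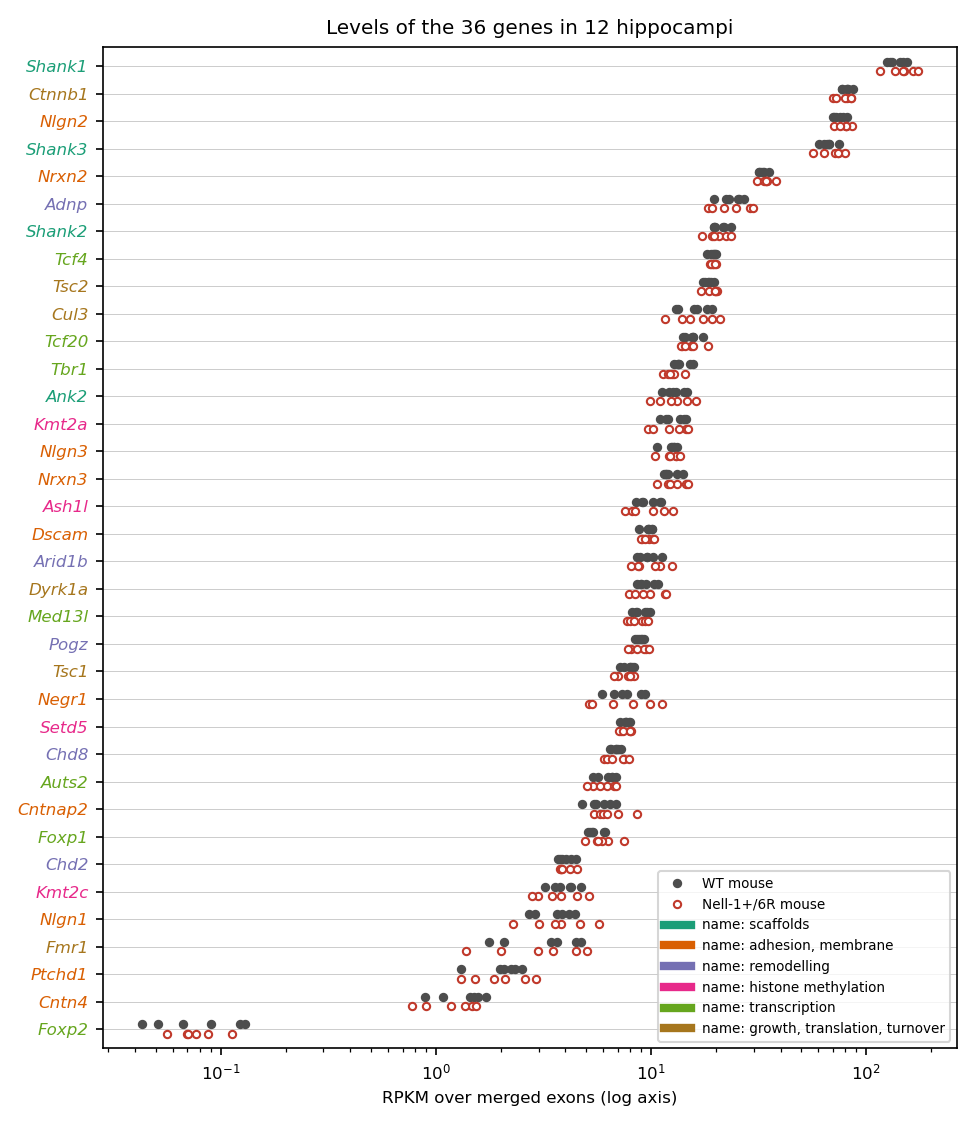
Level of each of the 36 genes in each mouse, in RPKM over merged exons on a log axis; filled points are the 6 WT mice, open points the 6 Nell-1+/6R mice, and the colour of a name gives its role. Shank1 is highest with a WT mean of 138 RPKM and Foxp2 lowest with 0.0839 RPKM, and for every gene the points of both genotypes overlap.

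The 3 neuroligins among the genes show how far members of a family differ in base composition, which matters for the results further on. Over the longest coding transcript, the measure used further on, GC made up 38.9% in Nlgn1, 49.3% in Nlgn3 and 60.7% in Nlgn2. This includes untranslated sequence: in Nlgn1, 2529 of 11807 bases are coding. Over the coding sequence alone GC was 45.9% in Nlgn1, 55.3% in Nlgn3 and 62.7% in Nlgn2. Printed here are 120 bases of the same aligned stretch of coding sequence, all within exon 7 of 8 of the transcript used, from GENCODE M21 on GRCm38 (mm10), 5′ to 3′ on the coding strand, with G and C in capitals. The stretch was chosen as the window with the most positions identical in all 3 genes. It lies at chr3:25435879-25435998 on the minus strand in Nlgn1, at chr11:69826770-69826889 on the minus strand in Nlgn2 and at chrX:101318573-101318692 on the plus strand in Nlgn3.
Nlgn1: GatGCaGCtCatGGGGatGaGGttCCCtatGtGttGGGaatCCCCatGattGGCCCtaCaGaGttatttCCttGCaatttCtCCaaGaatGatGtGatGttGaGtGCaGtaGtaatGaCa
Nlgn2: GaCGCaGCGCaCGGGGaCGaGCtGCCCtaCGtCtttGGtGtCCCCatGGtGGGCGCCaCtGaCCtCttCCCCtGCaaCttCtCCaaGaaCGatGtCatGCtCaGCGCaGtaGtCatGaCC
Nlgn3: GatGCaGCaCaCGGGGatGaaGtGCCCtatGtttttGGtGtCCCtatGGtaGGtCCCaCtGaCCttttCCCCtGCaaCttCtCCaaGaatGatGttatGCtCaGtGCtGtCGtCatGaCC
Nlgn1 and Nlgn2 were identical at 91 of these 120 positions, and 23 of their 29 differences fell on the third base of a codon. G or C stood at 54 positions in Nlgn1, 61 in Nlgn3 and 73 in Nlgn2. Over the whole aligned coding sequence Nlgn1 and Nlgn2 shared 64.1% of bases.
A like contrast separates Fmr1 from Shank1. The 120 bases nearest the middle of each coding sequence that lie within a single exon are shown for both, at chrX:68705249-68705368 in exon 11 of 17 of Fmr1 and at chr7:44352048-44352167 in exon 24 of 25 of Shank1, both on the plus strand.
Fmr1: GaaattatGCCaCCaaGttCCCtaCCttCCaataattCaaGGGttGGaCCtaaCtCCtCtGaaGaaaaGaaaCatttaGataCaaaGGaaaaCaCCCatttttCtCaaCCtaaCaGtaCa
Shank1: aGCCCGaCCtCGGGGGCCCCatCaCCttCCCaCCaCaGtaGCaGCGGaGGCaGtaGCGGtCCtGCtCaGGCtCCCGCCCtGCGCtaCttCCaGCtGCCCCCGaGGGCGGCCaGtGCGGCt
G or C stood at 45 positions of the Fmr1 stretch and at 86 of the Shank1 stretch. Over the transcript the share was 39.2% in Fmr1 and 61.4% in Shank1, and over the coding sequence alone 44.0% and 63.6%.

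Between the genotypes, the levels of these genes lay close together. At an unadjusted p under 0.05, 1 of the 36 differed (edgeR, quasi-likelihood test, sex in the model), where 3.26% of all 17937 genes tested did. None passed at an adjusted p under 0.05, as 0.0390% of all genes did, and none did with DESeq2 or limma-voom. The log2 difference, Nell-1+/6R minus WT, was above 0 in 16 genes and below 0 in 20, with a median of -0.01 beside -8e-04 over all genes tested. This balance of signs turned with the AT/GC tilt of the library, a measure of base composition defined further on, as covariate: 23 genes were then above 0 and 13 below, with a median of 0.01. It also turned with single mice: with each left out in turn the median ran from -0.043 to 0.048 and was above 0 in 5 of 12 fits, those without Nell-1+/6R female 1 or 2, WT female 3, Nell-1+/6R male 2 or WT male 2. Without Nell-1+/6R female 3, only 9 of the 36 were above 0. In none of the 36 did the genotypes separate without overlap, as they did in 0.151% of all genes. The 95% intervals show what the design could resolve: they lay wholly within a 1.5-fold change in either direction for 33 of the 36 genes, and within a 1.25-fold change for 28. The 3 exceptions were Fmr1, Foxp2 and Cntn4, the genes with the widest intervals but for Ptchd1.

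**Figure D2:**
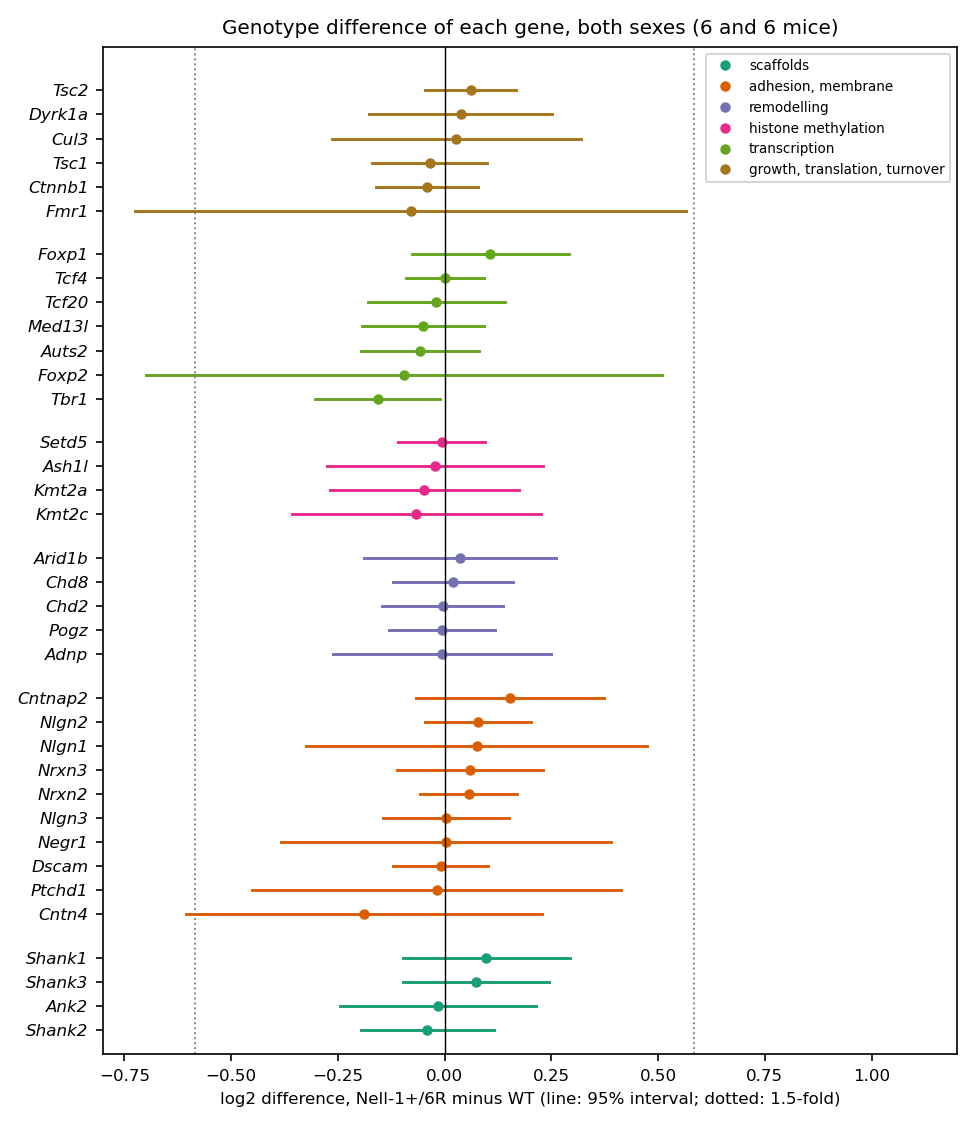
Log2 difference of each gene between Nell-1+/6R and WT mice, both sexes, from edgeR; points are estimates, lines 95% intervals, dotted lines a 1.5-fold change, and colours roles. Every interval but that of Tbr1 covers 0, and those of Fmr1, Foxp2 and Cntn4 reach past the left dotted line.

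Among the scaffolds, Shank1 was at 1307, 1446 and 1625 CPM (lowest, median and highest) in WT mice and at 1224, 1567 and 1834 CPM in Nell-1+/6R mice. Its highest and its lowest mouse were both female Nell-1+/6R mice, so the spread within that genotype was wider than the difference between genotypes (log2 difference 0.10, 95% interval -0.10 to 0.29, adjusted p = 0.9995). Without Nell-1+/6R female 3 the difference was 0.17 with an unadjusted p under 0.05 (adjusted p = 0.923, edgeR), and without Nell-1+/6R female 2 it was 0.045. Shank3, whose loss causes Phelan-McDermid syndrome, was at 556, 610 and 689 CPM in WT and 520, 666 and 736 CPM in Nell-1+/6R mice, a log2 difference of 0.07 (95% interval -0.10 to 0.24). Shank2 differed by -0.04 and Ank2, an adaptor between membrane proteins and the spectrin skeleton, by -0.02.
Among the adhesion and membrane genes, the log2 differences ran from -0.19 to 0.15. Cntnap2, a neurexin-like protein of the axon, was at 49.1, 59.3 and 70.3 CPM in WT and at 55.5, 62.7 and 88.4 CPM in Nell-1+/6R mice (log2 difference 0.15, 95% interval -0.07 to 0.37, adjusted p = 0.9995). Its range overlapped widely between genotypes, and its top value came from a single male, replicate 3, without which the difference was 0.071. Cntn4 had the estimate farthest below 0, at 7.51, 12.5 and 14.5 CPM in WT and 6.59, 10.8 and 13.0 CPM in Nell-1+/6R mice (log2 difference -0.19, 95% interval -0.60 to 0.23), and it ran from -0.074 without Nell-1+/6R female 1 to -0.31 without WT male 1. Nlgn2, at 407, 428 and 471 CPM in WT and 409, 465 and 497 CPM in Nell-1+/6R mice, was estimated more narrowly (0.08, 95% interval -0.05 to 0.20), and so was Nrxn2 (0.06, 95% interval -0.06 to 0.17). The other members, Nrxn3, Nlgn1, Nlgn3, the IgLON protein Negr1, the adhesion molecule Dscam and Ptchd1, had estimates between -0.02 and 0.08.
Among the chromatin genes, the remodellers Chd8 and Chd2, the BAF subunit Arid1b, and the zinc finger proteins Adnp and Pogz had log2 differences between -0.01 and 0.04. The 4 genes of histone methylation were all slightly below 0, from -0.07 for Kmt2c to -0.01 for Setd5, each with an interval across 0, and 2 of them were above 0 with the tilt as covariate. Chd8, a chromatin gene often hit by new mutations in autism, was at 107, 114 and 120 CPM in WT and at 99.7, 116 and 130 CPM in Nell-1+/6R mice.
Of the transcription genes, Tbr1, a T-box factor of glutamatergic neurons that specifies deep cortical layers, was the gene past the unadjusted threshold. It was at 69.9, 73.7 and 86.2 CPM in WT and at 62.4, 68.1 and 78.9 CPM in Nell-1+/6R mice. The ranges overlapped, with the median of the Nell-1+/6R mice below the lowest WT mouse (log2 difference -0.16, SE 0.068, adjusted p = 0.9995, edgeR). The value did not pass the correction over all genes, and the unadjusted p was over 0.05 in 7 of 12 fits that left out a mouse: Nell-1+/6R female 1 or 2, WT female 1 or 2, Nell-1+/6R male 1 or 3, or WT male 2, with log2 differences from -0.16 to -0.11. Neocortex markers, another source of Tbr1, summed to 183 to 211 CPM in WT and 176 to 204 CPM in Nell-1+/6R mice, with 5 of their 7 genes below 0, estimates from -0.21 to 0.27 and 1 gene higher and 1 lower at an unadjusted p under 0.05, and their part in this value was not tested. Foxp1, a forkhead factor of CA1 and striatal neurons, was estimated at 0.11 (95% interval -0.08 to 0.29), and Tcf4, the basic helix-loop-helix factor of Pitt-Hopkins syndrome, at 0.00 with the narrowest interval of all (-0.09 to 0.09).
In the last group, Tsc2 was at 167, 178 and 188 CPM in WT and at 164, 190 and 195 CPM in Nell-1+/6R mice (log2 difference 0.06, 95% interval -0.05 to 0.17), and its partner Tsc1 was at -0.04. Of the 36 genes, 5 share exon bases with another gene of the count table, each on the opposite strand: Tsc2 shares 693 with Pkd1, Ctnnb1 759 with Ulk4, Nrxn2 682 with Slc22a12, Ash1l 352 with Dap3 and Shank1 339 with 1700008O03Rik. No source used here gives the strand setting of the counting, so their counts may be affected by reads of those genes. On the same strand, Adnp shares 4393 exon bases with Gm20716, Nlgn3 3823 with Gm21986 and Chd2 2628 with 1810026B05Rik, which have no matched ID in the count table. Fmr1 was at 15.9, 31.8 and 42.4 CPM in WT and at 12.3, 29.1 and 45.1 CPM in Nell-1+/6R mice. It spanned 2.66-fold among the WT mice and 3.66-fold among the Nell-1+/6R mice, and with an interval of -0.72 to 0.57 a 1.25-fold difference in either direction was not detectable. The kinase gene Dyrk1a, Cul3 and Ctnnb1 had estimates between -0.04 and 0.04.

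Related genes outside the 36 were tested as fixed lists of other adhesion genes, scaffolds, BAF and CHD genes, COMPASS genes, partners of mTOR, FMRP, beta-catenin and CUL3, and further autism risk genes, with 172 genes tested in all. Of these, 1 had an unadjusted p under 0.05, where 3.26% of all genes did, and 0 an adjusted p under 0.05 with edgeR, where 0.0390% did, and their median log2 difference was 0.02. The gene was Homer3, a scaffold that ties metabotropic glutamate receptors to SHANK proteins, at 31.7, 37.5 and 40.9 CPM in WT and 35.5, 43.6 and 54.4 CPM in Nell-1+/6R mice (log2 difference 0.23, adjusted p = 0.9995, edgeR). Its unadjusted p was over 0.05 in 6 of 12 fits without a mouse (Nell-1+/6R female 2 or 3, WT female 1 or 3, Nell-1+/6R male 1, or WT male 3). Cntnap4, a cell surface receptor of Nell-1 and a relative of Cntnap2, averaged 15.9 ± 2.26 CPM in WT (SD, n = 6) against 17.1 ± 2.96 CPM (SD, n = 6) in carriers of 6R, a log2 difference of 0.10 (95% interval -0.17 to 0.38) that was 0.022 without Nell-1+/6R female 3 and 0.17 without Nell-1+/6R female 1.

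Within females alone, 1 of the 36 genes had an unadjusted p under 0.05, where 2.84% of all genes did, and 26 were below 0, as were 9151 of all 17937 genes. It was again Tbr1, at 86.2, 74.0 and 69.9 CPM in the 3 WT females and 62.4, 65.4 and 68.9 CPM in the 3 Nell-1+/6R females. These did not overlap, as was true of 6.00% of all genes in females (log2 difference -0.23, adjusted p = 0.998, edgeR). Cntn4 was at 13.4, 12.2 and 12.8 CPM in WT females and at 6.59, 7.66 and 12.5 CPM in Nell-1+/6R females. Female Nell-1+/6R replicates 1 and 2 were low and replicate 3 was within the WT range (log2 difference -0.52, adjusted p = 0.998). The difference was -0.84 without replicate 3 of these and -0.34 without replicate 1.
Within males 0 of the 36 had an unadjusted p under 0.05 with edgeR, where 3.37% of all genes did, and 29 were above 0, as were 9069 of all 17937 genes. The genotypes did not overlap in Tsc2, as in 10.4% of all genes in males, with 167, 183 and 188 CPM in WT and 190, 193 and 195 CPM in Nell-1+/6R males.
The median was -0.05 in females and 0.05 in males. The direction in females turned with the tilt as covariate, with 20 of the 36 above 0 and 16 below and a median of 0.0059, while in males 26 were above 0 with a median of 0.04. The male median was -0.016 without Nell-1+/6R male 3, so neither direction held in every fit. The test of the difference itself, female effect minus male effect, gave 0 of 36 at an unadjusted p under 0.05 (edgeR), where 3.09% of all genes passed, and a median of -0.11. The count in females turned on a single mouse. Without female Nell-1+/6R replicate 3, 13 of the 36 had an unadjusted p under 0.05, 10 of them lower and 3 higher, where 12.8% of all genes did, and the lowest adjusted p was 0.351. The 10 were Ank2, Cntn4, Negr1, Adnp, Kmt2a, Kmt2c, Tbr1, Tsc1, Fmr1 and Ctnnb1, and the 3 were Shank1, Shank3 and Nrxn2. In the same fit 6 genes passed in the difference between the sexes, where 10.3% of all genes did, with a lowest adjusted p of 0.479. The 2 Nell-1+/6R females that remained had the lowest AT/GC tilt of all 12 libraries. Without female Nell-1+/6R replicate 1 or 2 or female WT replicate 1, 0 of the 36 passed in females, where 2.43%, 1.96% and 1.92% of all genes did, and Tbr1 stood at -0.19, -0.22 and -0.13.
Between females and males, 34 of the 36 genes had estimates lower in females, with a median of -0.09, where 8786 of all 17937 genes did. The tilt averaged -0.06 ± 0.26 in females and 0.05 ± 0.16 in males (SD, n = 6; exact permutation test, two-sided, p = 0.400), and with it as covariate 33 were below 0 and the median was -0.04. Of the 36, 1 had an unadjusted p under 0.05, where 4.72% of all genes did. It was Auts2, a regulator of neuronal gene expression and of actin, at 115, 127 and 144 CPM in females (lowest, median, highest of 6) and 132, 152 and 158 CPM in males (log2 difference -0.22, SE 0.064, adjusted p = 0.868, edgeR). Its unadjusted p remained under 0.05 in every alternative fit.

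The genes did not vary independently from mouse to mouse. In 19 of the 36, the lowest of the 12 mice was female Nell-1+/6R replicate 1, and in 20 the highest was male Nell-1+/6R replicate 3. Both carry the same genotype. The gap between the highest and lowest mouse exceeded 2-fold in 6 genes: Fmr1 at 3.66-fold, Foxp2, Nlgn1, Cntn4, Negr1 and Ptchd1. It was under 1.25-fold in 9.
The shared component went with a measure of base composition, with which some cell type markers also moved (given below). For each library, an AT/GC tilt was computed as the median log2 deviation of the 2964 genes with the lowest transcript GC minus that of the 2964 with the highest, out of 11853 genes with a mean log2 CPM over 2 that exclude the 36. It is 0 for a library like the average of the 12, and positive where AT-rich genes are high. It was lowest in female Nell-1+/6R replicates 1 (-0.35) and 2 (-0.30) and highest in female Nell-1+/6R replicate 3 (0.27) and male Nell-1+/6R replicate 3 (0.26). The tilt averaged -0.02 ± 0.27 in Nell-1+/6R and 0.02 ± 0.17 in WT mice (SD, n = 6), which differ by less than the spread of the mice (exact permutation test, two-sided, p = 0.736). In the same 11853 genes, from which the tilt is made, it was also the main axis: the first principal component held 42.8% of the variance and correlated with the tilt at r = 0.96.

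**Figure D3:**
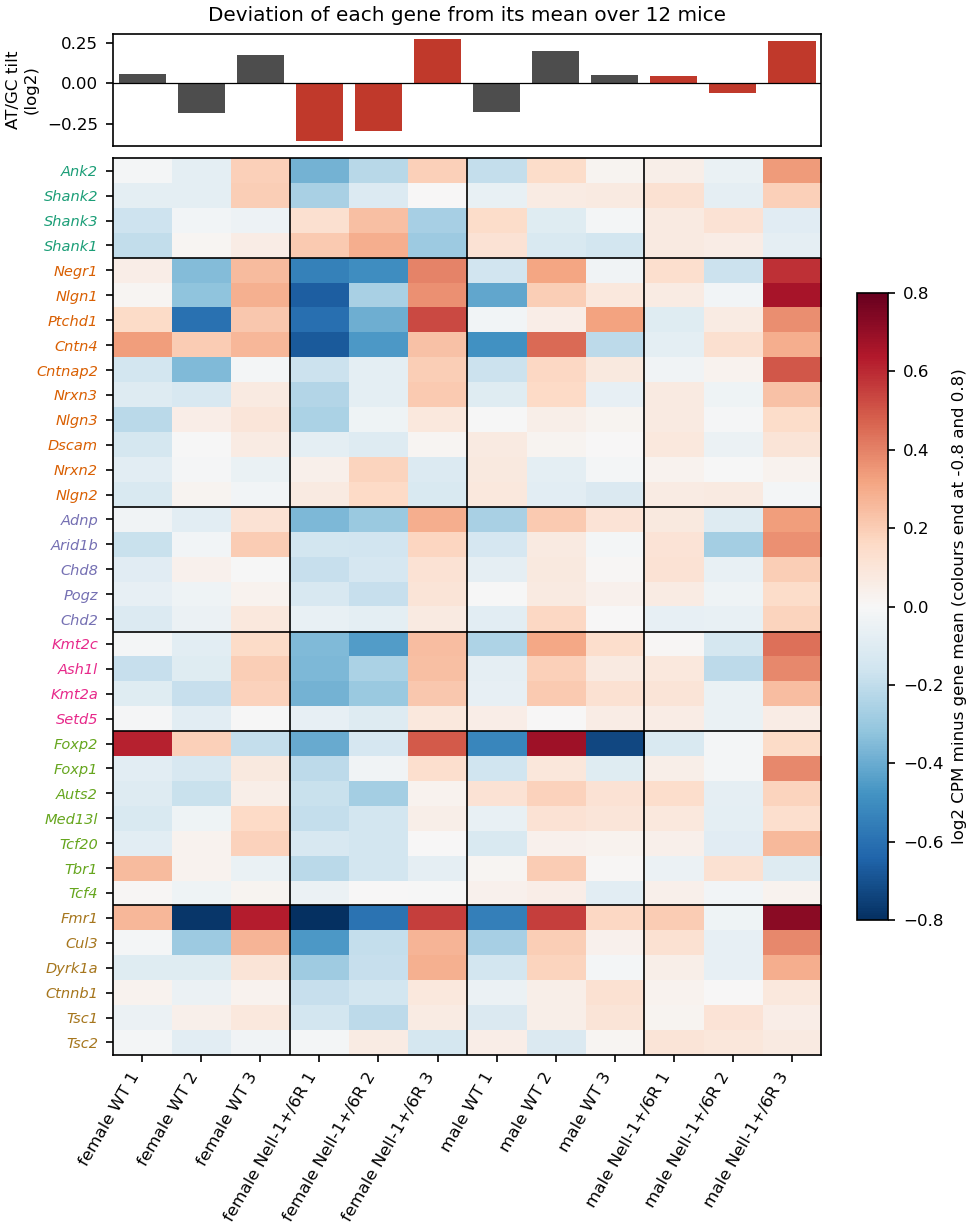
Deviation of log2 CPM of each gene from its mean over the 12 mice, with mice in columns by group and genes in rows by role; the bars above give the AT/GC tilt of each library. Columns with a tilt far below 0 (female Nell-1+/6R 1 at -0.35) are blue in most rows and red in Shank1 and Shank3, and columns with a tilt far above 0 (male Nell-1+/6R 3 at 0.26) are the reverse in most rows.

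Of the 36 genes, 26 rose with the tilt and 4 fell at an adjusted p under 0.05 (permutation test of Pearson's r over 12 mice, 17937 genes tested, Benjamini-Hochberg), where 15.6% of all genes rose and 12.8% fell. All of the 36 but Foxp2 had a mean log2 CPM over 2, as did 12027 of the 17937 genes, and the shares within that level are not given here. The tilt is made from part of all genes, which sets the direction of many of them, but not from the 36. Of the 172 related genes, which were not kept out of it, 67 rose with the tilt and 28 fell by the same test, so genes outside the 36 moved with it too. All 30 had the same sign in each genotype alone, in each sex alone, without the 2 mice farthest from the median tilt and without any single mouse. With Spearman's rho, 24 of these 30 passed. The tilt took up a median of 70.5% of the variance within groups in the 36 genes, beside 40.8% in the 12027 genes with a mean log2 CPM over 2. The genes and the tilt come from the same libraries, and the step that set the tilt was not tested.
Fmr1 moved most, with 12.3 and 18.1 CPM in the libraries with the lowest tilt and 40.3 and 45.1 CPM in those with the highest. Its Pearson's r was 0.97 (p = 1e-05, the smallest that 100000 permutations can give, adjusted p = 4.48e-04) and Spearman's rho 0.95 (permutation p = 2e-05, adjusted p = 0.00107), and r was 0.96 without the 2 farthest mice. Within WT mice alone r was 0.99 and within Nell-1+/6R mice alone 0.97.
Nlgn1 ran from 30.7 CPM in female Nell-1+/6R replicate 1 to 77.0 CPM in male Nell-1+/6R replicate 3 (r = 0.94, permutation p = 1e-05, adjusted p = 4.48e-04; rho = 0.94, permutation p = 3e-05, adjusted p = 0.00127; r = 0.94 without the 2 farthest mice). Nlgn2 went the other way, with 497 CPM in female Nell-1+/6R replicate 2 and 409 CPM in female Nell-1+/6R replicate 3 (r = -0.74, permutation p = 0.0082, adjusted p = 0.0329; rho = -0.75, permutation p = 0.0074, adjusted p = 0.0358; r = -0.62 without the 2 farthest mice). As a result, the ratio of Nlgn2 to Nlgn1 in CPM ranged from 5.70 in male Nell-1+/6R replicate 3 to 15.2 in female Nell-1+/6R replicate 1, a 2.67-fold span within a genotype. Nlgn3, whose GC lies between them, had r = 0.60 (permutation p = 0.0379, adjusted p = 0.104) and rho = 0.68 (permutation p = 0.0187, adjusted p = 0.0691), and r was 0.36 without the 2 farthest mice.
Shank1 and Shank3 fell with the tilt. Shank1 was at 1733 and 1834 CPM in the libraries with the lowest tilt and at 1224 and 1424 CPM in those with the highest (r = -0.79, permutation p = 0.0026, adjusted p = 0.0143; rho = -0.79, permutation p = 0.0032, adjusted p = 0.0200; r = -0.60 without the 2 farthest mice). Within WT mice alone its r was -0.48 and within Nell-1+/6R mice alone -0.91, a difference that was not tested. Shank3 gave r = -0.80 (permutation p = 0.0019, adjusted p = 0.0111) and rho = -0.85 (permutation p = 8.2e-04, adjusted p = 0.0082), with r = -0.71 without the 2 farthest mice. Across the 12 mice these 2 scaffolds followed each other (r = 0.93). Shank2, at 55.0% GC, did not follow Shank1 (r = -0.39) and had a positive correlation with the tilt (r = 0.81, rho = 0.69). Nrxn2, the fourth gene that fell, has the highest GC of the 36 at 62.4%.

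**Figure D4:**
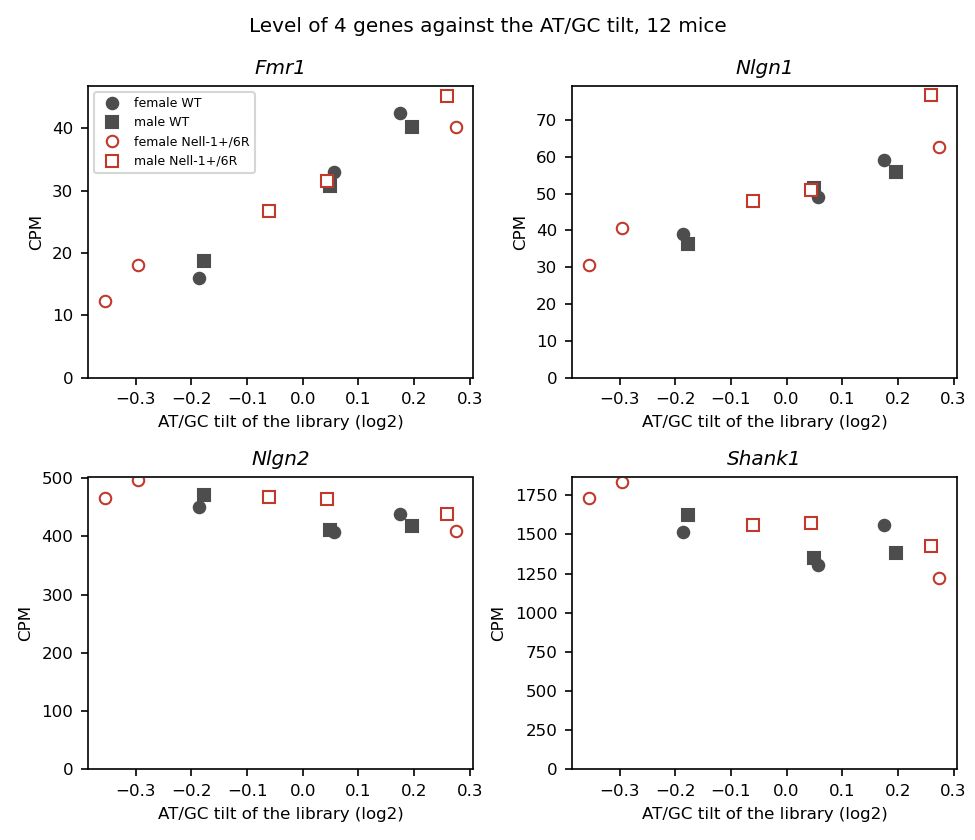
CPM of Fmr1, Nlgn1, Nlgn2 and Shank1 against the AT/GC tilt of the library (log2); each point is a mouse, circles females, squares males, filled WT, open Nell-1+/6R. Fmr1 and Nlgn1 climb from 12.3 to 45.1 CPM and from 30.7 to 77.0 CPM, while Nlgn2 and Shank1 decline from left to right.

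The slope on the tilt was graded by GC. Across the 36 genes the Spearman correlation of slope and transcript GC was -0.73. Across the 11888 genes with a mean log2 CPM over 2 and a known GC it was -0.67, but its sign is fixed there by construction, since the tilt is made from the genes of lowest and highest GC in that set. Across the 36 genes alone, the correlation of slope was 0.38 with the length of the gene on the chromosome and -0.05 with transcript length. Genes are not independent replicates, so these are descriptions. The median GC of the 36 was 49.2%, near the 50.3% of all genes, but their genes were long, with a median span of 125 kb against 22.4 kb, and 10 spanned more than 500 kb. GC did not set the slopes alone: most of the 36 had a slope above the upper quartile of genes of like GC. Shank2 and Auts2 rose by 0.51 and 0.52 per unit at 55.0% and 54.4% GC. Genes from 54% to 56% GC had a median slope of -0.31 and an upper quartile of -0.13. What set this apart from GC was not tested. Tcf4, with 40.9% GC, hardly varied, and its log2 CPM rose by 0.07 per unit of tilt. Fmr1, at 39.2% GC, rose by 2.81 per unit. Kmt2c, Kmt2a and Adnp rose by 0.94 to 1.19 per unit at 47.6% to 50.6% GC. Oligodendrocyte and microglia markers, too, followed the tilt, with a correlation of their mean log2 deviation of -0.78 and -0.80 over the 12 mice, and their part in the slopes was not tested.

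**Figure D5:**
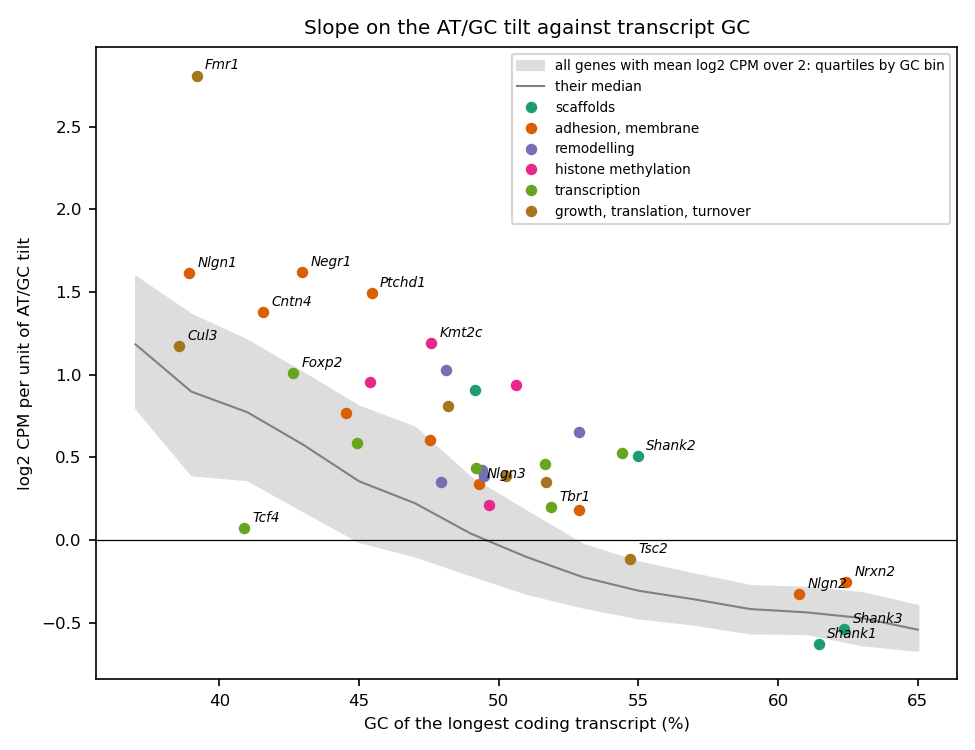
Change of log2 CPM per unit of AT/GC tilt for each of the 36 genes against the GC of its longest coding transcript (%), coloured by role; the grey line and band are the median and quartiles of all genes with a mean log2 CPM over 2, by GC. Fmr1 lies highest at 2.81, and Shank1, Shank3, Nrxn2 and Nlgn2 lie below 0 at over 60% GC.

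With the tilt as a covariate, added after the data were seen, 3 of the 36 genes had an unadjusted p under 0.05 for genotype, where 5.55% of all genes did. They were Cntnap2 (log2 difference 0.18, SE 0.059, adjusted p = 0.866, edgeR), Foxp1 (0.13, SE 0.049, adjusted p = 0.868) and Tbr1 (-0.15, SE 0.062, adjusted p = 0.883). In females Cntn4 stood at -0.40, Cntnap2 at 0.26 and Tbr1 at -0.21, each with an unadjusted p under 0.05 and an adjusted p of 1.00, where 4.07% of all genes passed unadjusted. In males Foxp1 (0.16) and Tsc2 (0.12) passed unadjusted, where 5.73% of all genes did. For Auts2 the difference between females and males was -0.18 (SE 0.042, adjusted p = 0.567), and with it Kmt2a, Tsc2 and Shank3 passed unadjusted, where 6.38% of all genes did.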

How the data were processed

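Hippocampal RNA of 12 mice was sequenced in single reads of 50 bases, and the authors deposited raw counts per gene (per the labels, HISAT2 2.1.0 to mm10 and featureCounts 2.0.1; strand setting not given in the sources used here). The counts were tested here with edgeR 4.0.16 (quasi-likelihood, TMM factors, model of sex and genotype, or 4 groups for the effects in each sex) in R 4.3.3, for genes that reached 0.2 CPM in 2 or more mice, with Benjamini-Hochberg adjustment over 17937 genes. The main tests were also run on simulated data. The members and lists were chosen with earlier results of these data known. Named are all 36 genes, Nell1, Cntnap4 and genes of the related lists with an unadjusted p under 0.05. Symbols came from RefSeq by Entrez ID, and positions, exon lengths and GC from GENCODE M21 (35 genes by Entrez ID, 1 by symbol). Neuroligin coding sequences were aligned with MAFFT 7.526. log2 CPM used a prior count of 2. P-values measure the spread between these mice. Alternatives were DESeq2 or upper-quartile factors, DESeq2, limma-voom, other filters, no second factor, the replicate number as block, no top gene, each mouse left out and, chosen after the data were seen, the AT/GC tilt as covariate and Spearman's rho.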

Additional observations from a re-analysis of the deposited data

Results flagged for a closer look

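In the test of each of the 36 genes and Nell1 for a mouse far from the others of its genotype (74 groups of 6, of which chance flags about 1 in 20), 2 groups held such a mouse, both times female WT replicate 1. Nlgn3 was at 98.6 CPM in this mouse and between 114 and 122 CPM in the other 5 WT mice, a gap of 0.66 of the whole range. Dscam was at 77.1 CPM in it and between 84.8 and 89.3 CPM in the other 5, a gap of 0.631 of the range. This library had the most counts of all, 16016317, and its choroid plexus markers summed to 2074 CPM. They summed to 4618 CPM in male WT replicate 3, which had 116 CPM of Nlgn3 and 84.9 CPM of Dscam. The part of depth and of choroid plexus in these values was not tested.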

How the results depend on the processing

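Each of the 36 genotype differences was recomputed under 11 other settings beside those without a mouse. No gene passed at an adjusted p in any of them. The sign changed in 15 of 396 such values, all near 0. Negr1 was at -0.0015 with upper-quartile factors, -0.031 with limma-voom and -0.028 with the replicate block. Without the gene with the most counts, Dscam was at 0.0012, Chd2 at 0.0052, Adnp at 0.0027, Pogz at 0.0038 and Setd5 at 0.0033. With the AT/GC tilt as covariate, Ank2 was at 0.012, Ptchd1 at 0.011, Chd2 at 0.0096, Adnp at 0.022, Pogz at 0.0059, Ash1l at 0.0010 and Setd5 at 8.4e-05. With each mouse left out in turn, 22 of the 36 changed sign at least once, and their lowest and highest log2 differences were Adnp -0.10 and 0.054, Ank2 -0.086 and 0.051, Arid1b -0.044 and 0.10, Ash1l -0.11 and 0.039, Chd2 -0.041 and 0.028, Chd8 -0.017 and 0.053, Cul3 -0.056 and 0.11, Dscam -0.031 and 0.017, Dyrk1a -0.043 and 0.091, Fmr1 -0.30 and 0.090, Foxp2 -0.23 and 0.13, Kmt2a -0.13 and 0.0096, Kmt2c -0.16 and 0.0013, Negr1 -0.14 and 0.093, Nlgn1 -0.056 and 0.19, Nlgn3 -0.032 and 0.047, Pogz -0.043 and 0.022, Ptchd1 -0.21 and 0.079, Setd5 -0.034 and 0.019, Shank2 -0.076 and 0.013, Tcf20 -0.078 and 0.025 and Tcf4 -0.014 and 0.016. Of genes that kept their sign, Foxp1 ran from 0.038 to 0.15, Shank3 from 0.021 to 0.13 and Nrxn2 from 0.020 to 0.083. Tsc2 ran from 0.035 to 0.090, Nlgn2 from 0.050 to 0.11 and Nrxn3 from 0.0048 to 0.10. Tsc1 ran from -0.074 to -0.0017, Ctnnb1 from -0.077 to -0.015, Med13l from -0.082 to -0.0089 and Auts2 from -0.097 to -0.018. In males Cntn4 ranged from -0.054 to 0.47.
Without a mouse, the number of the 36 with an unadjusted p under 0.05 ranged from 0 to 2 for genotype (2.14% to 5.12% of all genes), 0 to 13 in females, 0 to 6 for the difference between the sexes' effects and 1 to 4 for females against males, with medians of -0.043 to 0.048 for genotype, -0.17 to 0.012 in females, -0.016 to 0.11 in males and -0.23 to -0.043 for the difference. The gene added for genotype, without female Nell-1+/6R replicate 3, was Shank1 (0.17), in a fit where 5.12% of all genes passed. Without male WT replicate 2 it was 2 in females and 1 for the difference of effects, where 2.69% and 3.35% of all genes passed. For females against males it was 4 without female Nell-1+/6R replicate 3 or female WT replicate 3, where 9.45% and 7.64% of all genes passed, and 2 without Nell-1+/6R male 1 or WT male 1, where 3.52% and 6.15% did. With the tilt as covariate the number was 3 for genotype, 3 in females, 2 in males, 1 for the difference of effects (4.14% of all genes) and 4 for females against males. In females it was 2 with no filter (2.56% of all genes) and 2 with limma-voom (3.03%), which gave 1 for the difference of effects (3.04%). The gene added in these was Cntn4 (-0.53, -0.56 and -0.74). Cntnap4 passed unadjusted with the tilt as covariate (0.14). With the replicate number as a block, the number was 2 in females (3.08% of all genes) and 3 for females against males (6.37%). Whether same-numbered mice are pairs is not known. The correlations of same-numbered mice of a sex ran from -0.20 to 0.24, and those of other numbers from -0.36 to 0.26, which cannot decide it. The median level was 14.3 RPKM by longest transcript against 9.68 by merged exons. The causes were not tested.
Depth limits Foxp2, with 214 counts over all 12 mice.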
